A study of Homo sapiens with 6 samples.

Results

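A processed pseudogene is a copy of a spliced messenger RNA that was turned back into DNA and pasted elsewhere in the genome, mostly by the enzymes of LINE-1 elements. It therefore lacks the introns of its parent gene and usually its promoter as well. Genes that are strongly and constantly expressed in germ cells, those of ribosomal proteins above all, have left the most copies in the human genome. Because a copy and its parent can read almost the same, RNA assigned to a processed pseudogene can be RNA of the copy or RNA of the parent that was placed on the copy.

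The genes described here are the 143 processed pseudogenes with a mean of at least 5 FPKM (fragments per kilobase of gene length per 1000000 reads) over 6 libraries, out of 10191 processed pseudogenes and 58735 genes in the deposited table. Where a gene carries the name of the pseudogene without its ending P and number, it is called its parent. That was so for 100 of the 143, which share 77 parents, while 42 carry clone-based names and 1, FAM3C2, has no such ending. The libraries came from TPC1 cells, an established line of papillary thyroid cancer grown in DMEM with 10% serum. In 3 libraries (si-circ_0000839) the cells had received a siRNA that silences the circular RNA hsa_circ_0000839, and in 3 (NC) a negative control siRNA, each for 60 h. The only agent that differs between the groups is thus the siRNA, and every library comes from the same line and a transfection of the same length. Nothing in the labels ties the 3 libraries of a group to separate cultures, so every p-value measures the spread between these libraries, which may be technical. Each library held 18399558 to 19334633 reads, recovered from the FPKM steps. Of 8 thyroid lineage markers 4 had 0 reads in all libraries, and PAX8, a thyroid transcription factor, stood at 95.8 FPKM in NC. Summed levels of the 4 leukocyte markers reached at most 0.438 FPKM and those of the 3 endothelial markers at most 0.153. Those of the 4 fibroblast markers, nearly all from LUM, ran from 14.2 to 18.9 FPKM after si-circ_0000839 and from 20.01 to 25.05 in NC, and their part in the results was not tested. In bulk RNA, fewer cells of a kind and less RNA per cell cannot be told apart.

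The sequences of 4 groups of genes show how near a pseudogene and its parent can be. All are GENCODE release 29 transcripts on GRCh38, written 5′ to 3′ from the ATG. RPS28P7 and RPL39P3, with 3493 and 1014 FPKM the first and the third most abundant of the 143, hold the coding sequences of RPS28 and RPL39 (proteins of the small and the large ribosomal subunit) with 0 mismatches over 210 and 156 bases. RPS28P7 lies on the plus strand of chr11:82689559-82689768 and RPL39P3 on the minus strand of chr6:73373108-73373263.
RPS28P7: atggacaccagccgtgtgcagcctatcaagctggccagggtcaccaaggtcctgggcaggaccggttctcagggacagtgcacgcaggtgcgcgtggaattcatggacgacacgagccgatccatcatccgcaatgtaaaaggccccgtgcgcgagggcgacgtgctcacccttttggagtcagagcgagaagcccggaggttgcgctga
RPL39P3: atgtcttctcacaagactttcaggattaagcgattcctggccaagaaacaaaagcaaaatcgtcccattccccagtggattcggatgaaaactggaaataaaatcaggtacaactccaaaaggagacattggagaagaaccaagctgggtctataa

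TMSB4X encodes thymosin beta 4, a peptide that binds actin monomers. Its copies TMSB4XP8 (minus strand, chr4:90838903-90839037) and TMSB4XP6 (minus strand, chr20:50840615-50840749) are shown since each differs from the coding sequence by 1 base, yet TMSB4XP8 stood at 413 FPKM and TMSB4XP6 had 0 reads in all 6 libraries. Their places differ too. TMSB4XP8 lies in an intron of CCSER1 and TMSB4XP6 overlaps an exon of BCAS4, each on the strand opposite to that gene. Of the 50-base stretches of TMSB4XP8, 46.5% occurred letter for letter in TMSB4X, against 84.9% for TMSB4XP6. In transcripts of any other gene it was 46.5% and 100%. The parts of the place and of shared stretches in these values were not tested. Counted from the A of the ATG, the substitution is T46C in TMSB4XP8 and C13T in TMSB4XP6, with the parent's base first. Capitals mark these bases.
TMSB4X: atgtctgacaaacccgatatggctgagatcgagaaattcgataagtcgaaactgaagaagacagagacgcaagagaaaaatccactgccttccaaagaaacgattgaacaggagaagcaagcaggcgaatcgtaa
TMSB4XP8: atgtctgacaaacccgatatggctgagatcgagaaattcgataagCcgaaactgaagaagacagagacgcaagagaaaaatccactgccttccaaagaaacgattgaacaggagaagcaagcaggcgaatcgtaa
TMSB4XP6: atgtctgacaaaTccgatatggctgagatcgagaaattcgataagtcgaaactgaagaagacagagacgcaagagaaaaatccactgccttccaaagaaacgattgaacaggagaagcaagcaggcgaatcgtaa

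SPCS2P4 (minus strand, chr1:28095742-28096422) is the pseudogene with the smallest p between the groups. It differs from the coding sequence of SPCS2, a subunit of the signal peptidase of the endoplasmic reticulum, at 3 of 681 bases (G26A, A87G and A493G). The first 110 bases hold G26A and A87G, in capitals.
SPCS2: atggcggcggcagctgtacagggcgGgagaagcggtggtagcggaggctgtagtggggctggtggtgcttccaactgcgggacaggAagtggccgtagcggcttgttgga
SPCS2P4: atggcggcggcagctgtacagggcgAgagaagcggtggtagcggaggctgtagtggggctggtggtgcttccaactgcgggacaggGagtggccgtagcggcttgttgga

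The other extreme is AC092868.1 (chromosome 15, minus strand, 59406963 to 59408154), a copy of RPL7A with 85.3% identity, the lowest of the 143. It had 11.7 FPKM and was the 1 pseudogene of the 143 without a single 50-base stretch in common with the transcripts of another gene. Its first 120 bases are set against those of RPL7A, which encodes a protein of the large ribosomal subunit, with each differing position in capitals.
RPL7A: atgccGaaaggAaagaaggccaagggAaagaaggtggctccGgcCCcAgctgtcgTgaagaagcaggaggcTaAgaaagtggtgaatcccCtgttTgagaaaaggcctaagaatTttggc
AC092868.1: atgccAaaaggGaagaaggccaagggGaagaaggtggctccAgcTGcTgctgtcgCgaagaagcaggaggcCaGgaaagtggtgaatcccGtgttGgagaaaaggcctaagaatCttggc

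Levels come first, and since the 143 were chosen by their level, these values are a description. Of all processed pseudogenes 8178 (80.2%) had 0 reads in all 6 libraries, 2013 had a read in at least 1 library and 282 reached a mean of 1 FPKM. Among the 143, 23 had a mean of at least 100 FPKM, 77 lay from 10 to under 100 and 43 between 5 and 10. Just inside the threshold were GCSHP5 at 5.19 FPKM and AC002524.1 at 5.09, and just outside TCEA1P2 at 4.94 and AP001000.1 at 4.91. As they are short, with a median length of 555 bases against 3002 for their parents in the table, the 143 took 0.627% to 0.710% of each library's reads but 4.27% to 4.66% of its summed FPKM. The reads behind a value were also fewer: the median over the 143 was 187 reads per library, from 24 to 26376, and 608 over the 10674 genes whose mean reached 1 FPKM.

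RPS28P7 was the most abundant, at 3776, 3770 and 3464 FPKM in si-circ_0000839 replicates 1, 2 and 3 and 3066, 3382 and 3499 in NC replicates 1, 2 and 3. The groups overlapped. RPS2P5, a copy of the small subunit gene RPS2 in an intron of TAOK3, stood at 1674, 1480 and 1482 FPKM after si-circ_0000839 and at 1477, 1947 and 1518 in NC, where replicate 2 was above every other library. RPL39P3 had 934, 1040 and 992 FPKM after si-circ_0000839 and 1006, 1120 and 994 in NC, again with NC replicate 2 highest. The next 9 by mean were AC116533.1 (a copy of RPL36A, 431 FPKM), RPL18AP3 (415), TMSB4XP8 (413), RPS2P46 (347), AC005912.1 (a copy of RPS27, 346), RPL13AP5 (318), RPL10P16 (299.6), RPL41P1 (255) and EEF1A1P5 (249). EEF1A1 encodes the elongation factor that brings aminoacyl-tRNA to the ribosome. EEF1A1P5 and TMSB4XP8 are the 2 of these 12 that do not come from a ribosomal protein gene.

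**Figure D1:**
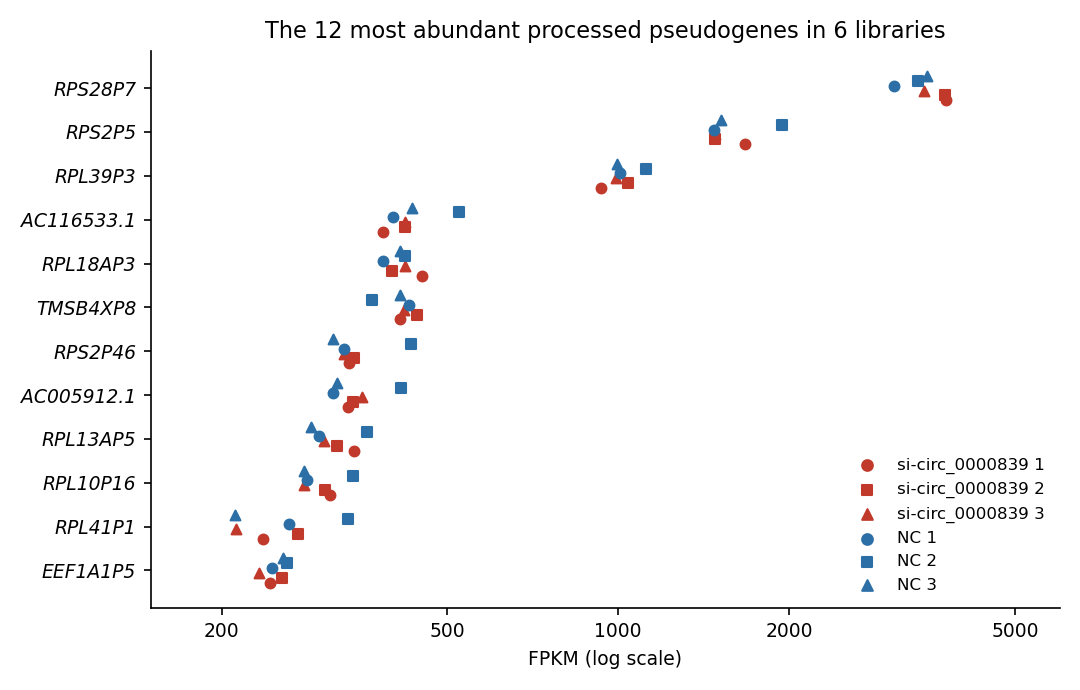
FPKM of the 12 most abundant processed pseudogenes on a log axis, with 1 point per library, si-circ_0000839 in red and NC in blue, and the marker shape giving the replicate. The groups overlap for each of the 12, and NC replicate 2 (blue square) lies to the right of the other libraries for 9 of them, among them RPS2P5 and RPL41P1.

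By parent, or by the closest protein-coding transcript where no parent is in the table, 71 of the 143 (49.7%) were copies of cytosolic ribosomal protein genes and these held 82.7% of the summed mean FPKM of the 143. Translation factors gave 11 pseudogenes (EEF1A1P5 the highest) and RNA-binding proteins 8, among them NPM1P27 (25.3 FPKM), a copy of the nucleolar chaperone gene NPM1. High mobility group chromatin proteins gave 4, led by HMGB1P6 at 92.6 FPKM, and glycolytic enzymes 4, led by AC012085.1, a copy of PGAM1, at 38.7 FPKM. All 3 ferritin copies came from the heavy chain gene FTH1. H3F3AP4, whose 411 bases are the coding sequence of the histone variant gene H3F3A, had 62.4 FPKM. Chaperones and prolyl isomerases gave 3, cytoskeletal genes 2, ubiquitin and proteasome genes 2 and oxidative phosphorylation 1. Copies of other genes numbered 33, up to ANXA2P2 (101.8 FPKM), a copy of the annexin A2 gene.

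Most named copies of these parents had no reads. The 77 parents have 1108 processed pseudogenes named after them, of which 100 belong to the 143 and 796 had 0 reads in all libraries. PPIA, which encodes cyclophilin A, had 86 named copies, 67 of them with 0 reads and 2 among the 143. RPSA had 67, of which 52 had 0 reads and 3 were among the 143. GAPDH had 59, of which 47 had 0 reads and 1, GAPDHP1 with 11.7 FPKM, was among the 143. By name, the 4 parents with the most copies among the 143 had 3 each. Counting clone-named copies by their closest gene, RPL41 had 4. For FTH1 they were FTH1P2 (27.3 FPKM), FTH1P8 (18.9) and FTH1P7 (17.6), and for RPL13A they ran from RPL13AP20 (5.87) through RPL13AP25 (6.69) to RPL13AP5 (318). For RPSA, the laminin receptor and small subunit protein, they were RPSAP19 (5.50), RPSAP15 (7.02) and RPSAP58 (49.2). Those of RPS7 were RPS7P10 (5.55), RPS7P11 (36.4) and RPS7P1 (151). Among the copies of these 4 parents within the 143, levels differed by up to 54-fold. Within each of these 4 sets the copy with the highest FPKM was also the closest to the parent: RPL13AP5 had 99.5% identity against 97.7% for RPL13AP25 and 96.7% for RPL13AP20, RPSAP58 99.6% against 98.3% and 98.1%, RPS7P1 99.1% against 98.8% and 97.7%, and FTH1P2 97.6% against 97.5% for FTH1P8 and 97.3% for FTH1P7. Over all 19 parents with at least 2 named copies among the 143, the most abundant copy was the closest in 12, tied in 2 and not the closest in 5. These 5 were RPL12, SNRPG, SERBP1, HMGN2 and YBX1. RPL12P14, for example, had 7.84 FPKM at 94.1% identity and RPL12P4 7.73 FPKM at 98.6%.

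Against their parents, the median pseudogene stood at 15.7% of the parent's FPKM and 2.27% of its reads. FPKM divides by gene length, which is longer for the parent and counts the exon bases of all its transcripts. RPS7, for example, had 5584 such bases, while its longest coding transcript had 987. The lowest ratios were those of RPL13AP20 (0.326% of RPL13A), RPL13AP25 (0.372%), RPSAP19 (0.630%) and RPSAP15 (0.805%). In 17 pairs the pseudogene had the higher FPKM, but in 4 the higher number of reads, and these 4 are the pairs with the highest FPKM ratios. RPS28P7 stood 36.4-fold above RPS28 in FPKM and 3.62-fold in reads, since the table gives RPS28 a length of 2119 bases and RPS28P7 210. EIF4A1P10, a copy of a helicase gene of translation initiation, had 10.7 FPKM and EIF4A1 itself 0.315. UBE2V1P2 had 7.14 FPKM and UBE2V1, a ubiquitin-conjugating enzyme variant, 0.296. RPS10P3 had 8.62 FPKM and RPS10, of the small subunit, 0.544. In the annotation 42.9% of the exon bases of UBE2V1 also belong to the read-through gene TMEM189-UBE2V1 on the same strand. For RPS10 it was 39.4%, with the read-through gene RPS10-NUDT3. For EIF4A1 48.6% belong to other genes on its strand, among them the read-through gene SENP3-EIF4A1. The part of this overlap in the low values of the parents was not tested. Some clone-named copies showed the same order. AC008038.1 had 227 FPKM while EEF1G, an elongation factor subunit with 99.9% of its exon bases shared with another gene, was listed at 0. AC116533.1 had 431 FPKM while RPL36A, with 8.40% of its exon bases shared, had 0.415. Across the 100 pairs, which share the same libraries, the mean FPKM of pseudogene and parent had a Spearman rho of 0.30.

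**Figure D2:**
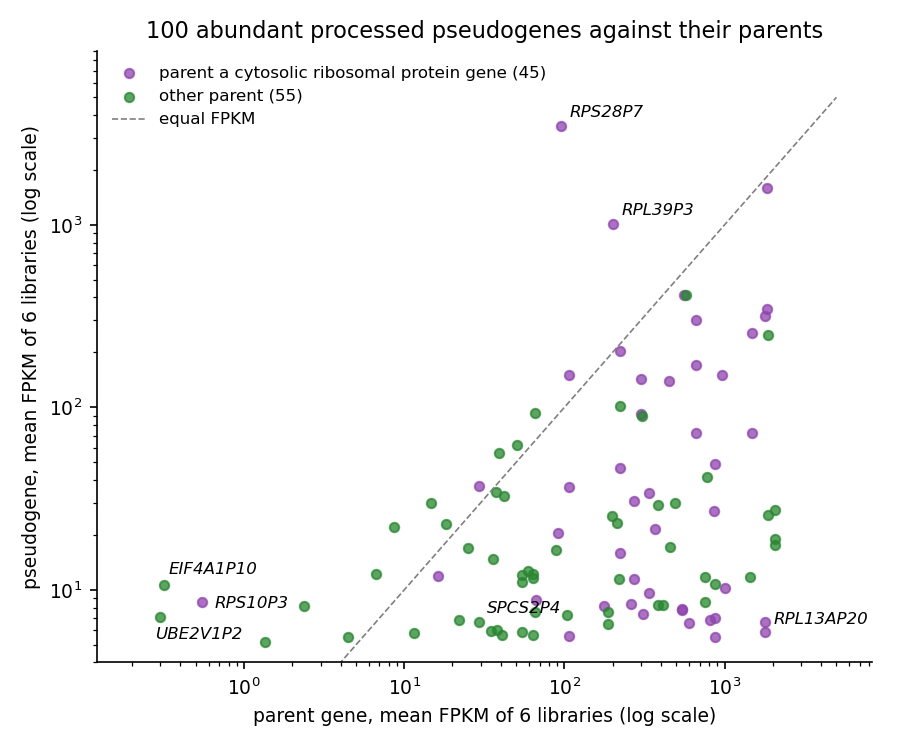
Mean FPKM over 6 libraries of each of 100 processed pseudogenes against that of its parent, both on log axes, in purple where the parent is a cytosolic ribosomal protein gene and in green otherwise. The dashed line marks equal FPKM: 17 points lie above it, and the 3 at the far left have parents under 1 FPKM.

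The rule did not use sequence. Most of the 143 read almost like a coding gene, with exceptions such as AC092868.1 and RPL12P14. Identity to the closest protein-coding transcript had a median of 98.7% (quartiles 97.7% and 99.6%), against 97.5% for the pseudogenes from 1 to under 5 FPKM, 92.3% for those above 0 and under 1 FPKM and 87.6% for those with 0 reads. Of the 143, 127 (88.8%) were at 97% or more, 56 (39.2%) at 99% or more and 16 were identical to it over their whole length. The closest gene was the named parent in 99 of 100 pairs, with the exception of EIF5AP4, closest to EIF5AL1. The level of the closest gene differed as well, with a median of 222 FPKM for the 143. It was 50.3 for the pseudogenes from 1 to under 5 FPKM and 22.2 for those with 0 reads. Medians of identity and of this level cover only pseudogenes that aligned to a coding transcript. These were all 143 and 131 of 139 from 1 to under 5 FPKM. Of those above 0 and under 1 FPKM they were 1646 of 1731, and of those with 0 reads 7280 of 8176. Among pseudogenes that aligned over at least 90% of their length to a gene with at least 100 FPKM, 0 of 548 below 85% identity belonged to the 143, 1 of 658 from 85% to under 90%, and 1 of 889 from 90% to under 95%. From 95% to under 97% it was 8 of 180, from 97% to under 98% 18 of 78 (23.1%), from 98% to under 99% 29 of 54 (53.7%) and from 99% on 29 of 46 (63.0%). Over the same bands the share with 0 reads went from 88.7% to 6.52%.

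**Figure D3:**
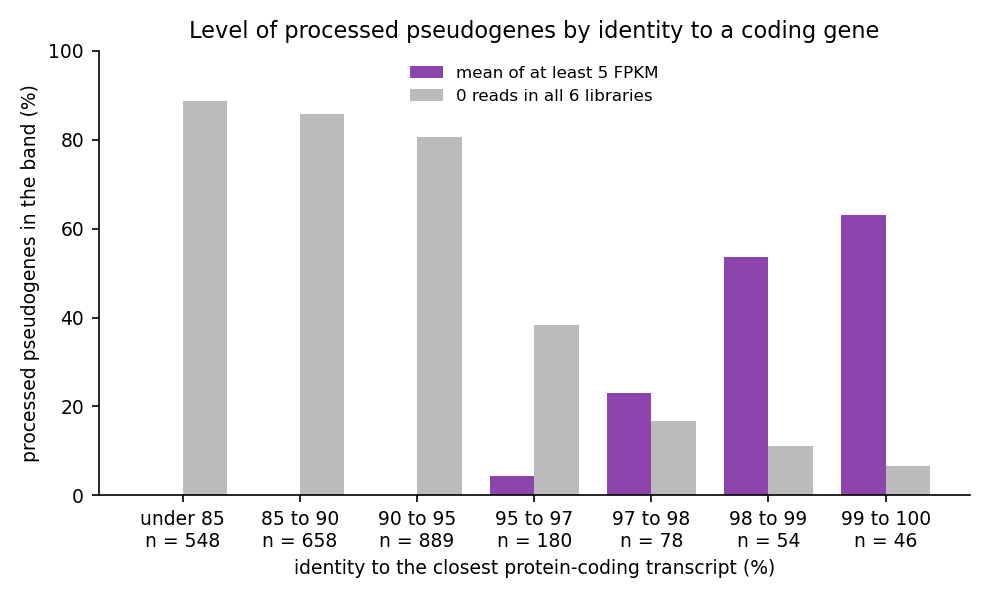
Percent of processed pseudogenes with a mean of at least 5 FPKM (purple) and with 0 reads in all 6 libraries (grey), by identity to the closest protein-coding transcript, for pseudogenes aligned over at least 90% of their length to a gene of at least 100 FPKM. The purple bars go from 0% below 85% identity to 63.0% at 99% and above, and the grey bars from 88.7% to 6.52%.

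Near identity was not enough for a high value. In the band from 99% on, 17 pseudogenes were not among the 143, and 3 had 0 reads: TMSB4XP6, RPL12P16 (4 mismatches to RPL12 over 498 bases) and the 59-base AL353691.2. TMSB4XP6 overlaps an exon of BCAS4 on the opposite strand, and RPL12P16 an exon of NBEAL1 on the same strand. The part of this overlap in their values was not tested. In the same band, RPS26P15, RPS26P3, RPS26P47 and RPS26P8 had 0.307, 0.567, 0.584 and 0.505 FPKM although they differ from RPS26 (264 FPKM) by 2 or 3 bases. AC004552.1, with 2 mismatches to RPS26, had 0.378 FPKM. RPS26P6, with 1 mismatch over 346 aligned bases, had 3.55 FPKM. All values of these copies rest on where reads were placed. Of all 50-base stretches of a pseudogene, a median of 63.4% in the 143 occurred letter for letter, on either strand, in a transcript of another gene, and all of them did in 18. The median was 45.8% from 1 to under 5 FPKM and 0 for pseudogenes with 0 reads. Stretches of 100 bases gave 35.3% for the 143. A median of 70.1% of the 100-base stretches of the 143 crossed an exon junction of the closest gene. A read inside a shared stretch fits both transcripts, which are 1 place where the other gene overlaps the pseudogene. How reads with several places were counted is not given in the sources used here, nor are the read length and the strand setting. In these libraries the share of a pseudogene's reads that came from its own locus was not tested.

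The 143 lay on 23 chromosomes, with the most (18) on chromosome 1. There were 70 (49.0%) in introns of protein-coding genes, 55 (38.5%) between genes, 15 within non-coding genes and 3 in exons of protein-coding genes. The shares in such introns were 29.5% for pseudogenes from 1 to under 5 FPKM, 40.2% for those above 0 and under 1 FPKM, and 27.5% for those with 0 reads. Of the 70, 49 lay on the strand opposite to every host and 21 on the same strand as a host. In 56 of the 70 every host was under 5 FPKM, so the rule itself placed the pseudogene above its host. Counting these, 68 of the 70 had a higher FPKM than every host. RPS2P5 stood at 1596 FPKM in an intron of TAOK3 at 1.36, RPL39P3 at 1014 in an intron of OOEP at 0, and RPL18AP3 at 415 in an intron of TXNRD1, the thioredoxin reductase gene, at 43.6.

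Between the groups, 0 of the 143 pseudogenes and 0 of the 74 parents whose mean reached 1 FPKM passed an adjusted p of 0.05 in limma on log2(FPKM + 1). Over all 10674 genes 41 (0.384%) passed, 14 (0.131%) higher and 27 (0.253%) lower. After rescaling to TPM (values summing to 1000000 in each library) that split was 32 higher and 23 lower, and after quantile normalization 29 and 34. At an unadjusted p under 0.05 there were 20 pseudogenes (14.0%), 5 higher and 15 lower, and 7 parents (9.46%), against 12.6% of all genes, so both shares were near the background. The groups did not overlap in 16 pseudogenes (11.2%) and 15 parents (20.3%), against 18.1% of all genes. The log2 change of 124 of the 143 was under 0.26 in size, and the whole range ran from -1.02 (SPCS2P4) to 0.51 (RPL12P14). For the parents it ran from -0.30 (FTH1) to 0.20 (SPCS2). The median standard error of a log2 change was 0.113 for the pseudogenes and 0.0831 for the parents.

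Among the coding genes of the named families no change passed either. Of the 82 cytosolic ribosomal protein genes tested, 0 were higher and 0 lower, and the same count of 0 held for 63 translation factor genes, 15 glycolytic genes, 10 high mobility group genes, 56 RNA-binding protein genes, 135 ubiquitin and proteasome genes 91 oxidative phosphorylation genes, 85 chaperone and prolyl isomerase genes, 45 cytoskeletal genes and 21 histone genes. An unadjusted p under 0.05 was reached by 12.6% of all genes. In the families it was 0 of 82 ribosomal protein, 2 of 63 translation factor, 4 of 15 glycolytic and 3 of 10 high mobility group genes. For RNA-binding proteins it was 2 of 56, for ubiquitin and proteasome genes 9 of 135 and for oxidative phosphorylation 9 of 91. For chaperones and prolyl isomerases it was 10 of 85, for cytoskeletal genes 7 of 45 and for histones 4 of 21. Under the ferritin name both genes were tested and neither passed: FTH1 was at 1846 ± 208 FPKM after si-circ_0000839 and 2264 ± 44.8 in NC (SD, n = 3 each; limma adjusted p = 0.246).

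SPCS2P4 had the largest difference. It stood at 3.60, 3.43 and 4.71 FPKM in si-circ_0000839 replicates 1, 2 and 3, and at 11.96, 5.25 and 11.1 in NC replicates 1, 2 and 3. All si-circ_0000839 values lay below all NC values, with NC replicate 2 next to them. The log2 change was -1.02 (SE 0.23), and the limma adjusted p of 0.103 missed the threshold. The value rests on a mean of 86.2 reads per library. Without NC replicate 2 the log2 change was -1.36 and the adjusted p 0.00167, and over all alternatives the adjusted p ran from 0.00167 to 0.485 and the sign stayed negative. SPCS2 stood the other way, at 30.4, 31.5 and 32.2 FPKM after si-circ_0000839 and 26.4, 27.6 and 27.7 in NC (log2 change 0.20, SE 0.06, limma adjusted p = 0.258). Per 1000000 of the total by which the authors scaled each library, the reads of SPCS2P4 and SPCS2 together came to 93.1, 96.1 and 99.1 after si-circ_0000839 and 86.8, 85.8 and 90.3 in NC. Per 1000000 recovered reads the sums were 90.4, 97.8 and 99.1 against 88.5, 82.2 and 92.4, and the groups overlapped. On either scale SPCS2P4 held 2.63%, 2.43% and 3.23% of these reads after si-circ_0000839 and 9.38%, 4.17% and 8.38% in NC.

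**Figure D4:**
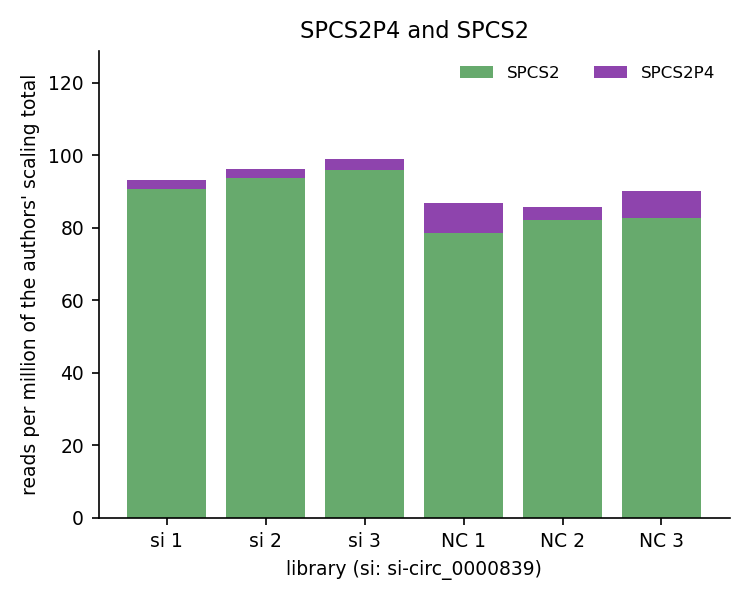
Reads on SPCS2P4 and SPCS2 in each library, per 1000000 of the authors' scaling total, stacked, with the pseudogene in purple and the parent in green. The purple part is largest in NC replicates 1 and 3, at 9.38% and 8.38% of the sum, and at most 4.17% in the other 4 libraries.

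That ratio was tested for every pair. On log2(FPKM + 1), pseudogene minus parent, 0 of 173 pairs (0.0%) passed an adjusted p of 0.05 in limma, 0 of the 97 pairs of the abundant pseudogenes among them. At an unadjusted p under 0.05 there were 7 of 173 (4.05%), 6 of which were among the 97. SPCS2P4 was first, with a difference of -1.22 (SE 0.26, limma adjusted p = 0.105), which became 0.00012 without NC replicate 2 and 0.913 without si-circ_0000839 replicate 1.

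The other 3 pseudogenes with the smallest p in their direction had smaller differences. AC016739.1, a copy of RPLP1, a protein of the ribosomal stalk, stood at 20.4, 19.2 and 17.5 FPKM after si-circ_0000839 and 23.8, 36.7 and 26.8 in NC, with NC replicate 2 highest (log2 change -0.57, SE 0.13, limma adjusted p = 0.113). RPL12P14 stood at 9.01, 8.92 and 10.1 FPKM after si-circ_0000839 and 7.89, 6.06 and 5.04 in NC (log2 change 0.51, SE 0.12, limma adjusted p = 0.117). Its parent RPL12, of the ribosomal stalk base, overlapped between the groups at 508 to 605 FPKM. RPS13P2 stood at 8.63, 9.83 and 9.08 FPKM after si-circ_0000839 and 7.59, 7.38 and 7.50 in NC (log2 change 0.26, SE 0.07, limma adjusted p = 0.191). None of the 3 passed. Their groups did not overlap, but they were chosen by their p, so this adds nothing to it. Over all genes, 18.1% had groups that did not overlap.

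The 143 varied more between libraries than other genes. The median SD within groups, on log2(FPKM + 1), was 0.183 for them, 0.103 for the parents and 0.104 for all tested genes, beside the lower read numbers given above. The ratio of highest to lowest library had a median of 1.44 for the pseudogenes and 1.22 for the parents, and was above 2 in 11 pseudogenes and 0 of the tested parents. Of these 11, 8 had a mean under 100 reads per library, against 43 of all 143. The part of read number in this spread was not tested.

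NC replicate 2 stood apart. It was the highest library in 78 of the 143 (54.5%) and in 44 of the 74 parents (59.5%), against 23.6% of all tested genes. The median deviation from the gene's own mean was 0.20 in that library for the pseudogenes, 0.12 for the parents and 0.01 for all genes on the log2 scale, and between -0.05 and 0.01 for pseudogenes and parents in the other 5. The authors' scaling total for NC replicate 2 was 18178893, below its 18980039 recovered reads. In si-circ_0000839 replicate 1 it was also below them, at 18337464 against 18888554. The part of this scaling was not tested. Among copies of ribosomal protein genes NC replicate 2 was highest in 55 of 71. Cytosolic ribosomal protein genes also took 10.5% of the reads in that library and 9.22% to 9.72% in the others, and the part of that share in the values of the copies was not tested.

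**Figure D5:**
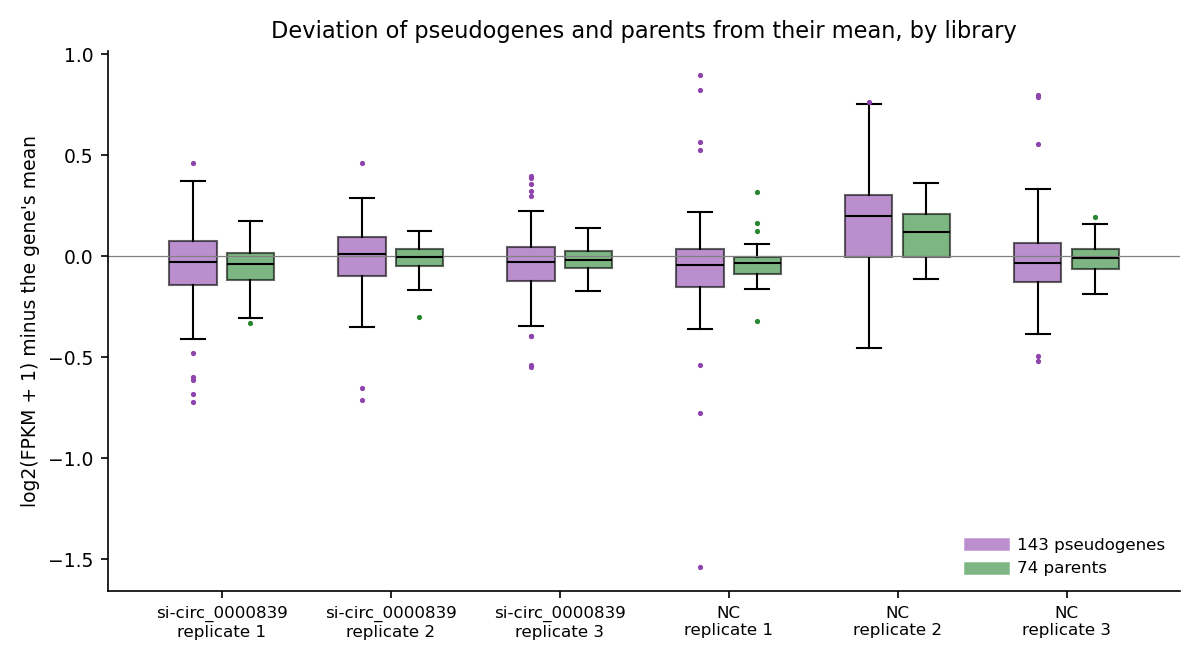
Deviation of log2(FPKM + 1) from each gene's mean over the 6 libraries, for the 143 pseudogenes (purple) and the 74 parents that reach 1 FPKM (green), as boxes over genes with the median as a line, quartiles as box ends, whiskers to 1.5 times the box height and points beyond. In NC replicate 2 both medians lie above 0, at 0.20 and 0.12.

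The sign of small differences over the whole set turned on that library. With all 6 libraries, 93 of the 143 pseudogenes had a log2 change below 0 and 50 above, with a median of -0.06, beside 48.2% below 0 and a median of 0.01 for all genes and a median of -0.04 for the parents. Of the 71 copies of ribosomal protein genes, 49 were below 0. Without NC replicate 2, 27 of the 71 were below 0, and the median of the 143 was 0.02. With the trend on GC content and length removed from each library, the median of the 143 was 0.01. The 143 took 0.645% ± 0.0149 of reads after si-circ_0000839 and 0.663% ± 0.0424 in NC (SD, n = 3 each; exact permutation test, two-sided p = 0.7, where the smallest possible is 0.1). Their parents took 8.52% ± 0.173 and 8.92% ± 0.328 (exact permutation test, two-sided p = 0.2).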

How the data were processed

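RNA was sequenced from 6 TPC1 samples of 2 groups, 3 each, grouped by the sample titles. The authors deposited 1 table of FPKM with gene lengths and coordinates (not log values), per the file headers. The tools HISAT2 2.0.5 (an aligner) and featureCounts (a read counter, 1.5.0-p3) are listed per the submitters' processing notes. The build and the strand setting, like the counting of reads with several places, were not given in the sources used here. All 58735 gene IDs have the positions of GENCODE release 29 (GRCh38). FPKM times length gave whole reads for 100% of values above 0 within 0.01, 18399558 to 19334633 per library, which is the depth behind all values, and intervals or spreads cover these libraries only.

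Genes whose mean reached 1 FPKM were tested with limma 3.58.1 (R 4.3.3, trended prior variance) on log2(FPKM + 1), which understates changes of low genes, with Benjamini-Hochberg adjustment over 10674 genes. The ratio of pseudogene to parent was tested likewise over 173 pairs, and shares of reads with an exact permutation test (scipy 1.17.1). The fits were checked on simulated data. Identity came from BLAST 2.17.0 (word size 16, e-value 1e-10) of all processed pseudogenes against GENCODE protein-coding transcripts, same strand. Shared stretches were exact matches of 50 or 100 bases, on either strand, in transcripts of another gene, genes overlapping the same place included. Positions in coding sequences came from the coding transcript that aligned best.

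The 143 pseudogenes, the families and the markers were chosen with earlier results of these data known. Named pseudogenes are the 12 with the highest mean, the 2 with the smallest p in each direction, the 4 with the highest and lowest ratios to the parent, those next to the threshold and the copies of the 4 parents with the most named copies among them. Others, such as TMSB4XP6, were named after their values were seen, and 1 pair is not reported here. Alternatives were pseudocounts of 0.1 and 5 FPKM, no filter or a mean of at least 5 FPKM, quantile, TPM and median-ratio scaling, voom on recovered reads, a replicate block and each library left out. After seeing the data, leaving out 2 libraries together and removing splines (5 degrees of freedom) on GC content and on length were added.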

Additional observations from a re-analysis of the deposited data

How the results depend on the processing

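The count of 0 called pseudogenes became 3 with a mean of at least 5 FPKM (AC016739.1, RPL12P14 and SPCS2P4) and 3 with the GC and length trend removed (AC016739.1, MORF4L1P1 and RPS13P2). It became 1 (SPCS2P4) with voom and also 1 when NC replicate 2 and si-circ_0000839 replicate 1 were both left out, and it ran from 0 to 1 with each library left out (RPL12P14 without NC replicate 1, SPCS2P4 without NC replicate 2). Among the pairs of the 143, the count of 0 called ratios to the parent became 1, SPCS2P4, without a filter, where 4 of all 1086 pairs passed. The count was also 1 without those 2 libraries and ran from 0 to 1 with each library left out, the same as over all 173 pairs. Libraries of the 2 groups with the same replicate number had correlations of deviations of -0.15, -0.29 and 0.15 for numbers 1, 2 and 3. Those with different numbers had -0.30 to 0.35, so these values cannot decide whether the numbers pair the samples. With the replicate block there was 1 called pseudogene and, among the pairs of the 143, 1 called ratio, SPCS2P4 in each. Over all 173 pairs 2 ratios passed with that block. Called parents stayed at 0 in every alternative. The difference in the share of reads on the pseudogenes, si-circ_0000839 minus NC, was -0.0174 percentage points, 0.0674 as a share of summed FPKM (the same after rescaling to TPM), 0.00825 without those 2 libraries, and from -0.0352 to 0.00609 with each library left out, above 0 without NC replicate 2. Of 849 log2 changes of 53 named genes, 838 kept their side of the threshold and 11 passed it only in the alternative, 0 called values changed sign, and 76 uncalled values did. Over all genes the calls were 1 higher and 3 lower of 26557 without a filter, and 33 and 35 of 6068 with a mean of at least 5 FPKM. Of 10674 genes they were 50 and 68 with voom, 92 and 105 with the trend removed and 10 and 25 with the replicate block. Without NC replicate 2 and si-circ_0000839 replicate 1 they were 11 and 15. With each library left out they ran from 5 to 18 higher and 14 to 20 lower, at 11 and 14 without NC replicate 1 and 13 and 16 without NC replicate 2. Of the 143 pseudogenes, 43 had under 100 reads per library.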
